A study of Mus musculus with 12 samples.

Results

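The genes described here are those whose change over 1 day of recovery from oxygen-glucose deprivation differed between control microglia and microglia lacking GLUT5, the fructose transporter encoded by Slc2a5. They were chosen by the interaction of recovery and genotype, which is the recovery change in the knockout (KO) minus the recovery change in the control (WT), fitted over 12 libraries. Genes on X and Y were left out. Of 55421 genes in the deposited table, 18200 autosomal or mitochondrial genes had enough counts to be tested, and 934 were called in the interaction at an adjusted p below 0.05. A gene written as "higher in KO" rose more, or fell less, over recovery in KO than in WT, and "lower in KO" is the reverse, so the words describe the change over recovery and not the level.

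Microglia were sorted from mouse brain. The labels give 6 h of oxygen-glucose deprivation (OGD), a model of ischaemia, with or without 24 h of recovery, and do not say where in the procedure the cells were deprived. The 4 groups of 3 libraries were named WT-OGD and WT-recovery for the control, and KO-OGD and KO-recovery for the knockout. WT carried Cx3cr1EGFP, in which a green fluorescent protein marks Cx3cr1-expressing cells, and KO carried Slc2a5-/-::Cx3cr1EGFP, so the reporter allele was present in all 4 groups. All mice were labelled male and P35-P40 in age. Cells that had not been deprived were not analysed here, so a recovery change is a difference from the end of deprivation and not from a resting state. The labels name no separate animals or cultures behind the replicates, and the p-values then measure only the spread between these libraries, which may be technical.

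Microglia are the resident macrophages of the brain. They take up debris, present peptides on class II molecules of the major histocompatibility complex (MHC) when activated, release chemokines that draw in other immune cells, and can divide in response to injury. GLUT5 is the main carrier of fructose in mouse tissues and is among the transcripts enriched in microglia.

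Several features of the libraries bear on every value below. Total counts ran from 31509859 to 45347118 in the OGD libraries and from 9885259 to 19915479 in the recovery libraries, so the recovery groups were less deeply sequenced. Slc2a5 had 40 to 58 counts in WT-OGD, 4 to 17 in KO-OGD and 0 to 2 in the recovery libraries of either genotype, which is under a floor of 3 counts, so its level did not check the genotype labels after recovery. Xist, the X-inactivation RNA of female cells, had 0 to 3 counts in the 3 WT-recovery libraries and 4101 to 10232 in the other 9, although all were labelled male. The sex of the WT-recovery cells and the interaction therefore cannot be told apart. WT-recovery replicate 1 has a treatment field that reads as no recovery, whereas its title and library name give recovery, and it was kept as WT-recovery. KO-recovery replicates 1 and 3 held skeletal muscle transcripts, with a summed level of 106 and 115 CPM (counts scaled to the library total) over 8 tested markers against 5.09 to 10.4 in the other 10 libraries. Mitochondrially encoded genes took 18.4% of counts in WT-recovery replicate 1 and 4.20% to 10.5% elsewhere. Of the 12 microglial markers all were tested, with summed levels of 3050 to 7850 CPM, whereas the lymphocyte markers summed to 2.29 to 7.66 CPM.

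The promoters of 3 groups of genes that the results turn on are shown first. They are printed because their members changed together: 2 class II genes that fell in KO and rose in WT, 2 mitotic genes and 2 replication genes that rose more in KO. The sequences are RefSeq promoters on GRCm38.p6, from 250 bases before to 50 bases after the annotated start, on the strand of the gene. Capitals mark 1 short motif in each: CTGATTGG, the Y box bound by NF-Y, in H2-Aa (chr17:34287774-34288073, minus strand, 51 bases before the start) and H2-Eb1 (chr17:34305617-34305916, plus strand, 62 bases before). In Kif23 (chr9:61946750-61947049, minus strand) and Bub1b (chr2:118597961-118598260, plus strand) they mark TTTGAA, the CHR element of cell cycle genes. In Cdc6 (chr11:98907901-98908200, plus strand) and Uhrf1 (chr17:56303087-56303386, plus strand) they mark GCGGGAA, part of many E2F sites, which in Uhrf1 reads on the opposite strand as TTCCCGC.
H2-Aa: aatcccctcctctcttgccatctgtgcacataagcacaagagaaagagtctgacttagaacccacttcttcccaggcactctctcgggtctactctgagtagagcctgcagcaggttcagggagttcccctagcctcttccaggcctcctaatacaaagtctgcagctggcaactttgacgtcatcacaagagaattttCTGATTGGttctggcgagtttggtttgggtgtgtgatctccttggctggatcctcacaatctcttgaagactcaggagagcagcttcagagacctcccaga
H2-Eb1: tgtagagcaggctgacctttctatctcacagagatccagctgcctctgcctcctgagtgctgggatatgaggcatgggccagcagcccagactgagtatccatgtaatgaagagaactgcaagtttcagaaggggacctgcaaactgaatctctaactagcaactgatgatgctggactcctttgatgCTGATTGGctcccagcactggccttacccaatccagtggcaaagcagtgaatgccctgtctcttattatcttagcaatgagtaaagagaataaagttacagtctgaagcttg
Kif23: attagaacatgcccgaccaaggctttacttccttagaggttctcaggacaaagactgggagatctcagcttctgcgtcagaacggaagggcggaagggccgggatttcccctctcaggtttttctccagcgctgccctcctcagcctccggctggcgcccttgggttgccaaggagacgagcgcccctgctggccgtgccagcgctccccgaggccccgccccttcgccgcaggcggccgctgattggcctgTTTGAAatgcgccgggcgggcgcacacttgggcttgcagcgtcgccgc
Bub1b: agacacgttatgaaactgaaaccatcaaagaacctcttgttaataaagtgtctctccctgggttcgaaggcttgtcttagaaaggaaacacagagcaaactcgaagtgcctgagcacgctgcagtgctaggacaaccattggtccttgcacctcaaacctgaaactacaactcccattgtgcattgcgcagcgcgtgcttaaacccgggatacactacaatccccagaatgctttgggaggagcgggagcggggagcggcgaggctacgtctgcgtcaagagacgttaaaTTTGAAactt
Cdc6: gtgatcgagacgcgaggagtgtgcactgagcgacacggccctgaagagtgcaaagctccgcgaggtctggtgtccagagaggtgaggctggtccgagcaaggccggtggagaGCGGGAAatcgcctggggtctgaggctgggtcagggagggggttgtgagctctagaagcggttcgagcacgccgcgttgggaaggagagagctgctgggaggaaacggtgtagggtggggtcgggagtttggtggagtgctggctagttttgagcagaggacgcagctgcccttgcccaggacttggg
Uhrf1: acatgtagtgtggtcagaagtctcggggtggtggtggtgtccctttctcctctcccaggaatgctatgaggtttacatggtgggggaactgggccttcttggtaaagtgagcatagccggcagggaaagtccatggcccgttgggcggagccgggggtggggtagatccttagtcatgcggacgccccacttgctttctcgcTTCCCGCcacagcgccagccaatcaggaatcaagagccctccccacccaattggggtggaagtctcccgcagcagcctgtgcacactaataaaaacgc
Counted on both strands, CTGATTGG was in 4.10% of all 32851 RefSeq promoters and in 3 of the 9 matched among 13 tested class II genes (33.3%), 6 of the 29 matched among 34 mitosis genes (20.7%) and 5 of the 26 matched among 31 replication genes (19.2%). TTTGAA was in 17.9% of all promoters and in 20 mitosis (69.0%), 3 replication (11.5%) and 0 class II promoters. GCGGGAA was in 4.60% of all promoters and in 11 replication (42.3%), 0 mitosis and 0 class II promoters. These 3 were taken from 9 motifs, chosen after the values of the lists were known. ATTGG and GATTGG, which lie inside CTGATTGG, were in 37.4% and 16.1% of all promoters, each in 7 class II promoters, in 20 and 15 mitosis promoters and in 14 and 10 replication promoters. TTCGAA was in 1.56% of all promoters, 3 mitosis and 1 replication promoter. TTTGGCGC was in 0.514% of all and 4 replication promoters. CGCGAAA (0.849% of all) and TTTCGCGC (0.323%), which overlap, were in 5 and 4 replication promoters and 1 mitosis promoter each. These last 4 were in 0 class II promoters, and TTTGGCGC was in 0 mitosis promoters. The shares over all promoters count every entry, whether or not its gene was tested, whereas each list gene counts with 1 promoter. H2-Ab1, Cd74 and Ciita had no promoter entry. A match is a description of the letters only.

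The 934 called genes are 5.13% of the genes tested, with 511 higher in KO (2.81%) and 423 lower in KO (2.32%). At least a 2-fold difference between the recovery changes was seen for 278 of the higher and 195 of the lower genes, and 798 of the 934 are protein coding. Recovery itself changed far more genes: 27.0% rose and 29.9% fell in WT, and 29.4% rose and 29.7% fell in KO. Of the genes higher in KO, 195 rose only in KO by the test, 175 rose in both genotypes, 74 fell only in WT, 36 fell in WT and rose in KO, and 31 fell in both. Of the genes lower in KO, 124 fell only in KO, 105 rose only in WT, 87 fell in both, 62 rose in both, and 45 rose in WT and fell in KO. The genotype gap was wider after recovery than after OGD for 312 of the higher genes and wider after OGD for 199 of them, whereas it was wider after OGD for 31 of the lower genes. The plot of both recovery changes shows these genes off the diagonal. The balance of directions depended on scaling and covariates: 419 genes were higher and 551 lower with mitochondrially encoded genes left out, and 254 higher and 356 lower with the summed astrocyte markers as a covariate. The number called also depended on single libraries. It fell to 547, 538 and 454 with WT-OGD replicate 1, 2 or 3 left out and to 564 and 596 with KO-OGD replicate 1 or 3 left out, and was 537 without WT-recovery replicate 2, 538 without KO-recovery replicate 1 and 1695 without KO-recovery replicate 3. Without WT-recovery replicate 3, 296 genes were higher. Without WT-recovery replicate 1, whose labels disagree, 826 were called, and without both KO-recovery libraries holding muscle transcripts 894 were.

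**Figure D1:**
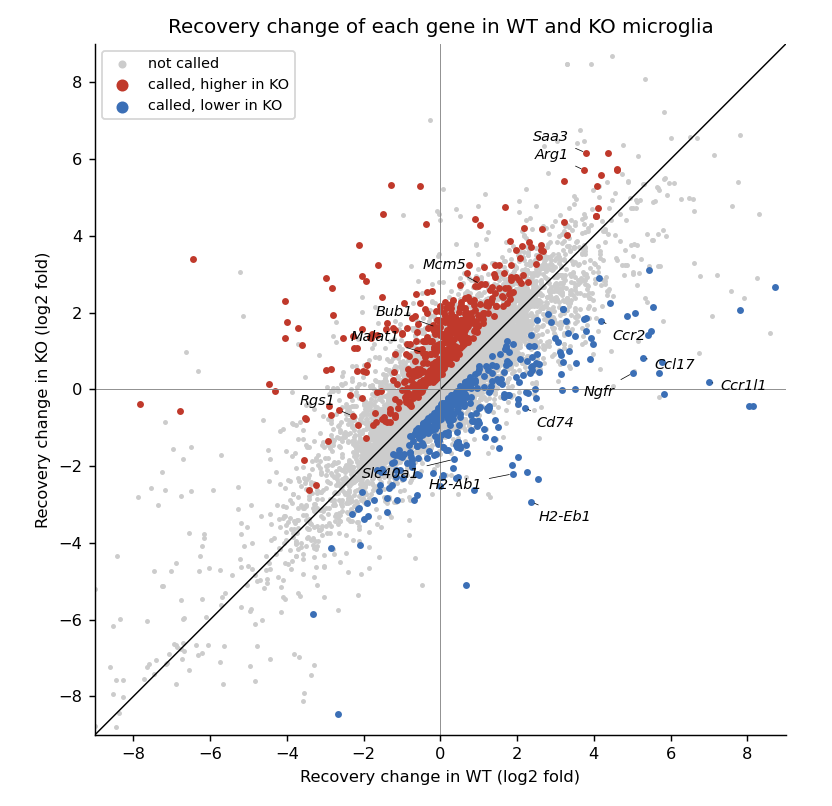
Recovery change in WT (x axis) and in KO (y axis), both as log2 fold change, for the genes tested, with the diagonal as the line of equal change. Red points are the 511 genes called higher in KO and blue points the 423 called lower, the class II genes H2-Ab1 and H2-Eb1 lie to the lower right, where WT rose and KO fell, and 12 genes with a change beyond 9 are outside the axes.

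Gene lists gave the functions in which the called genes fell (the plot of shares by list). Every list count below stands beside 2.81% called higher and 2.32% called lower over all genes tested. Counts of members that rose or fell stand beside 27.0% and 29.9% in WT and 29.4% and 29.7% in KO. Among 31 functional lists, the largest shares were in mitosis and spindle, with 27 of 34 tested members higher in KO and 0 lower, and DNA replication, with 16 of 31 higher and 0 lower. On the lower side, 4 of 13 class II presentation genes and 12 of 46 cytosolic ribosomal protein genes were called. The median interaction was 1.10 for mitosis, 0.63 for replication, −0.46 for class II and −0.36 for ribosomal proteins on the log2 scale, against 0.028 over all genes tested. In edgeR 0 members were called of 12 costimulation and checkpoint ligands, 16 Fc receptor genes, 13 mitochondrially encoded respiratory subunits, 22 lipid efflux and storage genes, 26 chaperones and 34 lysosome and autophagy genes. At an unadjusted p under 0.05 these lists held 3, 5, 0, 3, 4 and 4 members, and DESeq2 called 0, 0, 0, 1, 0 and 2.

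**Figure D2:**
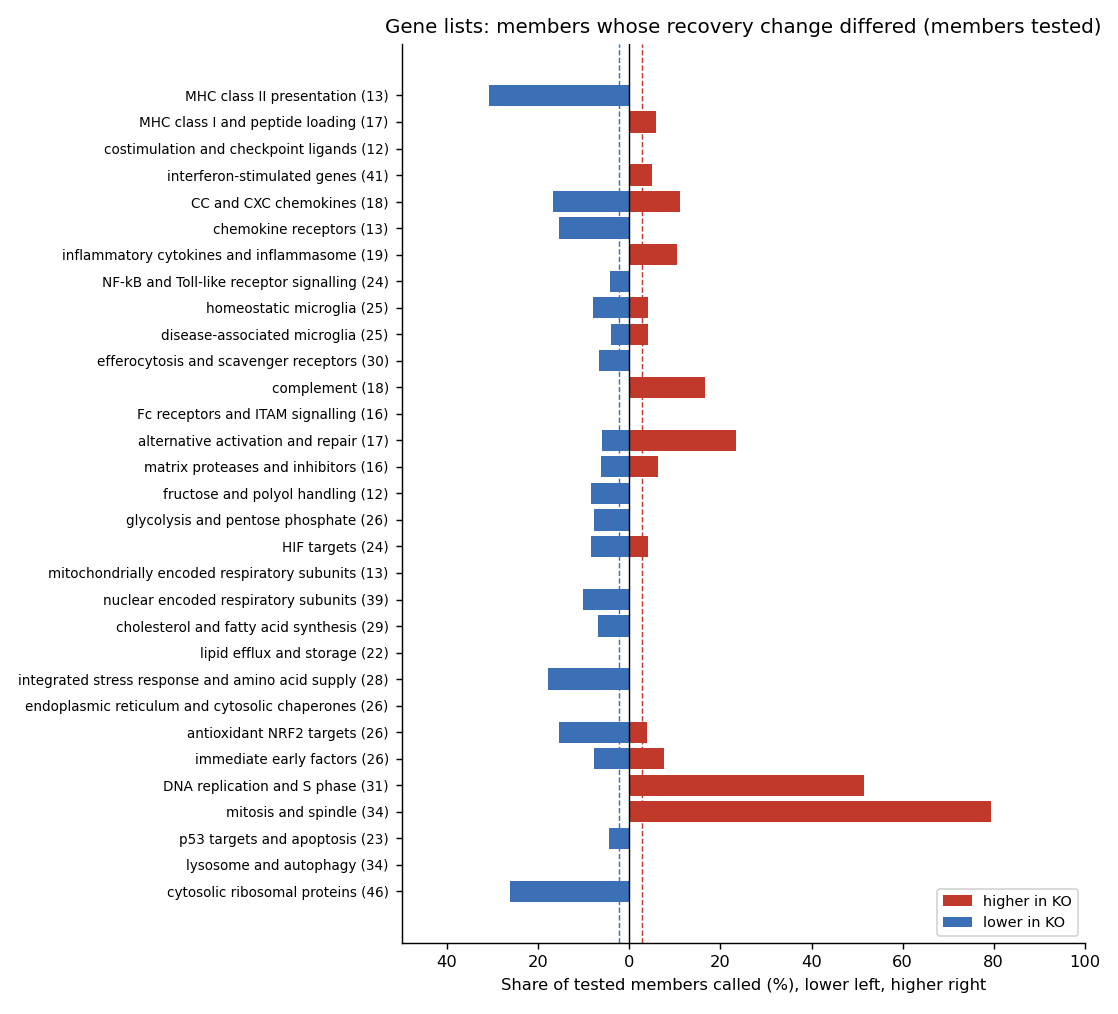
Share of the tested members of each functional list called in the interaction (x axis, percent), with red bars to the right for higher in KO, blue bars to the left for lower in KO and the number tested in parentheses. Dashed lines are the shares over all genes tested, 2.81% higher and 2.32% lower; mitosis and DNA replication reach furthest to the right, and class II presentation and ribosomal proteins furthest to the left.

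The genes of the class II molecule itself went opposite ways in the 2 genotypes, and these 4 of the 13 class II presentation genes tested were called, all lower in KO. H2-Aa, H2-Ab1 and H2-Eb1, which encode the chains of the class II dimer, and Cd74, the invariant chain that guides it to the endosome, rose over recovery in WT and fell in KO. In the OGD libraries the genotypes overlapped. H2-Ab1 (chr17:34257689-34269419) was at 18.5, 14.6 and 15.8 CPM in WT after OGD and 59.5, 49.5 and 72.6 after recovery, against 21.3, 10.9 and 17.0 after OGD and 3.37, 3.18 and 4.12 after recovery in KO. Every WT-recovery library was thus above every OGD library, and every KO-recovery library below. Its recovery change was 1.89 ± 0.21 (log2, SE) in WT and −2.2 ± 0.25 in KO, an interaction of −4.09 ± 0.33 (edgeR adjusted p = 4.62e-05). H2-Aa, whose promoter is printed above, stood at 69.3, 77.5 and 106 CPM in WT-recovery against 3.12, 3.51 and 5.62 in KO-recovery, from 14.8 to 22.3 and 11.9 to 23.8 in the OGD groups, an interaction of −4.41 ± 0.43 (edgeR adjusted p = 0.000476). H2-Eb1, the other printed class II promoter, read 32.0, 42.6 and 61.4 CPM in WT-recovery against 1.19, 0.898 and 1.39 in KO-recovery, from 7.26 to 11.6 and 6.74 to 10.7 after OGD, an interaction of −5.30 ± 0.43 (edgeR adjusted p = 7.15e-05). Cd74 was the most abundant of the 4, with 711, 619 and 799 CPM in WT-recovery against 137, 140 and 134 in KO-recovery. It rose by 2.2 ± 0.16 in WT and fell by 0.48 ± 0.15 in KO on the log2 scale, an interaction of −2.69 ± 0.22 (edgeR adjusted p = 1.5e-05). Mir5107, a miRNA gene that shares exon sequence with Cd74, followed it with an interaction of −2.39 ± 0.26, and its reads cannot be told apart from those of Cd74 without knowing how strand was counted. All 4 class II genes stayed called in each of the 25 alternatives run.

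Over the 13 genes of the class II list, 10 rose and 0 fell in WT, and 5 rose and 5 fell in KO. H2-DMa and H2-DMb1, subunits of the peptide exchange factor, rose in both genotypes, by 2.22 and 1.13 in WT and 2.50 and 0.68 in KO. Their interactions of 0.28 ± 0.12 and −0.46 ± 0.13 were not called (edgeR adjusted p = 0.203 and 0.06). Ciita, the transactivator that switches on class II genes, had group means of 0.998 CPM in WT after OGD and 2.78 after recovery, against 0.627 after OGD and 0.804 after recovery in KO, with an interaction of −1.17 ± 0.45 (edgeR adjusted p = 0.153). Of the class I and peptide loading list, 1 of 17 members was called, Nlrc5, higher in KO. That call was lost on leaving out any 1 WT-OGD library, KO-OGD replicate 2 or 3, WT-recovery replicate 1 or 3, or KO-recovery replicate 1 or 2, and 5 members were higher without KO-recovery replicate 3.

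Chemokines that are typical of mature dendritic cells behaved like the class II genes in WT. Ccl17, a ligand of the receptor CCR4, was at 46.5, 45.0 and 57.5 CPM in WT-recovery against 2.03, 1.39 and 6.00 in KO-recovery, with all 6 OGD libraries at 0.915 to 2.08. It rose by 5.28 ± 0.41 in WT, and its KO change of 0.82 ± 0.45 was not called, an interaction of −4.46 ± 0.60 (edgeR adjusted p = 0.00303). Ccl22, the other ligand of that receptor, read 65.8, 29.1 and 24.4 CPM in WT-recovery against 1.98, 1.39 and 2.68 in KO-recovery, an interaction of −5.06 ± 0.79 (edgeR adjusted p = 0.00689). The Ccl22 call was lost with counts thinned to the shallowest library (adjusted p = 0.108) and without the 2 KO-recovery libraries holding muscle transcripts (adjusted p = 0.0636). Cxcl3, a neutrophil attractant, rose in both genotypes but by 3.5 ± 0.28 in WT and 1.39 ± 0.29 in KO, with 19.5, 15.5 and 8.58 CPM in WT-recovery against 3.77, 3.35 and 4.34 in KO-recovery. Of 18 chemokines tested, 3 were lower in KO (Ccl17, Ccl22 and Cxcl3) and 2 higher. Ccl2, which attracts monocytes, rose from 6.29 to 9.25 CPM over the OGD libraries to 215, 186 and 138 in WT-recovery against 473, 468 and 326 in KO-recovery, an interaction of 1.12 ± 0.27 (edgeR adjusted p = 0.0327). Ccl9 was the other, at 0.54 ± 0.14. The Ccl2 call was lost without WT-OGD replicate 3, any 1 KO-OGD library, WT-recovery replicate 2 or KO-recovery replicate 1 or 2. The higher count was 0 on leaving out WT-OGD replicate 3, KO-OGD replicate 1 or 3, WT-recovery replicate 2 or KO-recovery replicate 1, 1 on dropping either of WT-OGD replicates 1 and 2 or replicate 2 of KO-OGD or of KO-recovery, and 4 without WT-recovery replicate 1 or KO-recovery replicate 3.

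**Figure D3:**
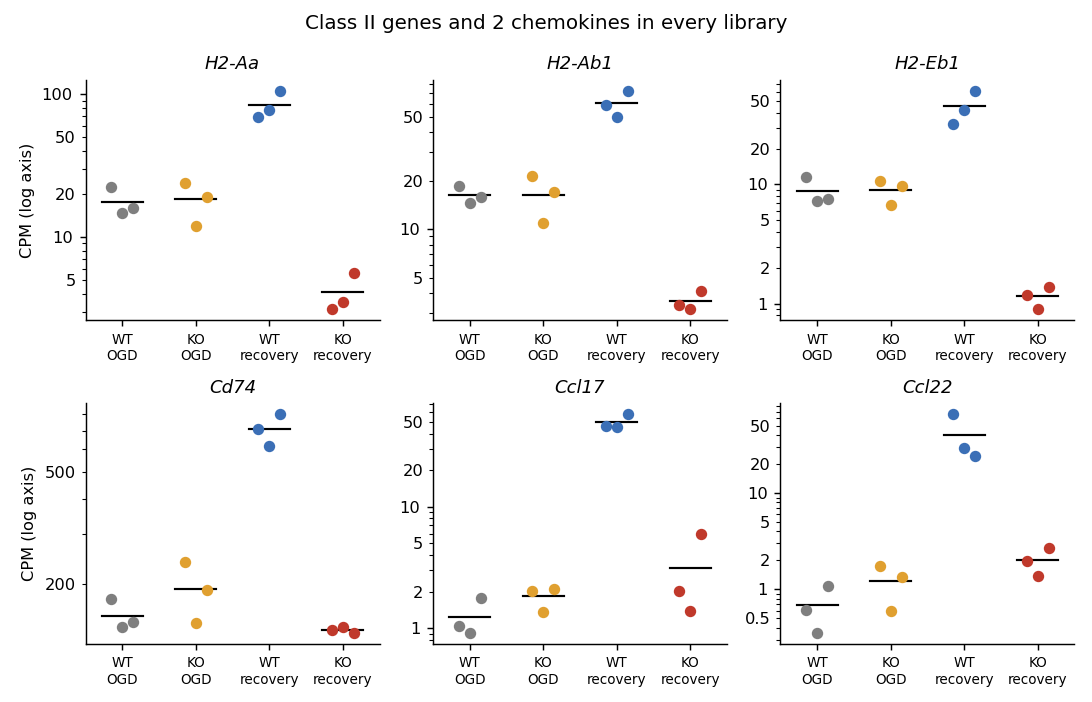
Normalised level in each of the 12 libraries (points, CPM on a log axis) with the group mean as a line, for 4 class II genes and 2 chemokines. In each panel the 3 WT-recovery points are above the 3 KO-recovery points, and the 2 OGD groups overlap. For genes chosen by largest fold, separate recovery groups were a condition of the choice.

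Other dendritic cell markers did not share a direction. The 14 tested of 16 dendritic markers include Ccl17 and Ccl22, and of the other 12, 6 had an interaction above 0 and 6 below. Without these chemokines the markers summed to 194 to 215 CPM in WT-recovery against 171 to 189 in KO-recovery, and to 190 to 214 in the 6 OGD libraries. Without Fscn1 as well, an actin bundling protein singled out after its values were seen, the recovery groups overlapped at 173 to 183 and 168 to 187 CPM. That overlap is not a test of the other markers, because Fscn1 was left out for its difference. The largest counts in the sum that remained were those of Il4i1, 2721 in WT-recovery and 3838 in KO-recovery, and Tcf4, 2092 and 2011. It therefore says little about members of few counts. Fscn1 had an interaction of −1.62 ± 0.48 that was not called (edgeR adjusted p = 0.0811). Cacnb3, a calcium channel subunit, was the 1 called of the 12, lower in KO, and lost its call without any 1 of the WT-OGD, KO-OGD and WT-recovery libraries. The migratory receptor Ccr7 had 88 counts in the WT-recovery libraries together, 2 in KO-recovery and 5 in each OGD group, an interaction of −5.90 ± 1.72 that was not called (edgeR adjusted p = 0.0616). Cd209a had 26 counts in WT-recovery and 1 or 2 in each other group. Of the lineage markers, Flt3 had 0 counts in WT-recovery, and Zbtb46 had an interaction of −0.03 ± 0.21. Clec9a, Itgae, Batf3 and Irf4 had interactions of 0.48 ± 0.31, 0.79 ± 0.23, 0.25 ± 0.28 and 0.32 ± 0.26, not called, and means of 16.5, 5.71, 7.38 and 10.8 CPM in WT-recovery against 21.8, 8.4, 9.23 and 13.1 in KO-recovery. The part of other antigen-presenting cells in the class II values was not tested, and in bulk RNA fewer cells of a type and less RNA per cell cannot be told apart.

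Genes of cell division rose over recovery in KO from a lower start. The mitosis and spindle list summed to 461, 433 and 534 CPM in WT after OGD and 604, 626 and 590 after recovery, against 242, 194 and 281 after OGD and 622, 633 and 579 after recovery in KO. The genotypes were thus apart after OGD and overlapped after recovery. All 34 members rose in KO, while 13 rose and 1 fell in WT. Over all genes tested 29.4% rose in KO, and 27.0% rose and 29.9% fell in WT. Bub1, a kinase of the spindle checkpoint, was at 9.05, 7.91 and 9.62 CPM in WT after OGD and 8.45, 8.48 and 7.84 after recovery, against 2.79, 2.79 and 3.25 after OGD and 8.87, 7.35 and 10.9 after recovery in KO. Its KO-OGD libraries were below all others, which overlapped. It changed by 1.62 ± 0.15 in KO and −0.10 ± 0.15 in WT, an interaction of 1.73 ± 0.21 (edgeR adjusted p = 0.00034). Kif23, a kinesin of the cleavage furrow, read 6.27, 6.05 and 7.90 CPM in KO-OGD against 12.2 to 16.9 in both WT groups and 21.1 to 23 in KO-recovery, an interaction of 1.43 ± 0.17 (edgeR adjusted p = 0.000284). Bub1b, a checkpoint protein related to Bub1, had an interaction of 1.51 ± 0.20 with 4.07 to 5.49 CPM in KO-OGD and 11.1 to 19 in the other 9 libraries. Nuf2, part of the kinetochore, rose in both genotypes, by 0.51 ± 0.15 in WT and 2.11 ± 0.16 in KO. Mastl, the kinase that restrains phosphatase activity at mitotic entry, had an interaction of 2.19 ± 0.26, at 1.15 to 1.86 CPM in KO-OGD, 3.90 to 4.20 in WT-OGD, 3.54 to 4.68 in WT-recovery and 6.10 to 7.51 in KO-recovery. Top2a, the topoisomerase of dividing cells, Cenpf, a kinetochore protein, and the proliferation marker Mki67 had interactions of 1.42 ± 0.22, 1.62 ± 0.31 and 0.93 ± 0.19, and these 3 were picked for mention after their values were seen. The call of Mki67 was lost without the 2 KO-recovery libraries holding muscle transcripts (0.77 ± 0.23, edgeR adjusted p = 0.0806).

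DNA replication genes moved in the same direction, and here KO also ended higher. The list summed to 474 to 523 CPM in WT after OGD and 743 to 792 after recovery, against 395 to 416 after OGD and 873 to 900 after recovery in KO, with no overlap between genotypes at either time. In KO 29 of 31 members rose and in WT 21 rose. Mcm5, a subunit of the replicative helicase, was at 13.5, 12.5 and 15.2 CPM in WT after OGD and 27.5, 31.6 and 26.4 after recovery, against 6.96, 5.39 and 6.92 after OGD and 45.5, 43.8 and 39.6 after recovery in KO. The order of the genotypes was therefore reversed between the 2 times. The recovery change was 1.05 ± 0.11 in WT and 2.74 ± 0.12 in KO, an interaction of 1.68 ± 0.16 (edgeR adjusted p = 6.69e-05). Cdc6, which loads the helicase, was at 0.559 to 1.39 CPM in KO-OGD, 2.30 to 2.66 in WT-OGD, 5.02 to 7.77 in WT-recovery and 9.63 to 10.3 in KO-recovery, an interaction of 1.83 ± 0.32 (edgeR adjusted p = 0.00487). Uhrf1, which couples DNA methylation to replication, had an interaction of 1.70 ± 0.24 (edgeR adjusted p = 0.00146). Clspn, the checkpoint mediator claspin, rose by 0.52 ± 0.18 in WT and 2.71 ± 0.19 in KO. Pole, the catalytic subunit of DNA polymerase epsilon, had an interaction of 2.18 ± 0.31, but its exons overlap another annotated gene, Gm15792.

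Astrocyte transcripts varied between the same groups. The 11 astrocyte markers summed to 131 to 189 CPM in WT after OGD and 169 to 194 after recovery, against 55.4 to 77.5 after OGD and 82.6 to 121 after recovery in KO, so KO was below WT at both times. Every KO library was below every WT library in that sum, so a covariate made of it is partly confounded with genotype. The sum also holds Aldh1l1, itself called higher in KO. With that level as a covariate, 14 of 34 mitosis genes and 8 of 31 replication genes were called higher, and the part of astrocytes in the calls lost was not tested. Leaving out the 2 KO-recovery libraries with muscle transcripts gave 19 and 11. Mcm5, Kif23, Bub1, Bub1b, Nuf2, Mastl, Clspn, Pole, Uhrf1, Cdc6, Top2a and Cenpf stayed called in all 25 alternatives.

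**Figure D4:**
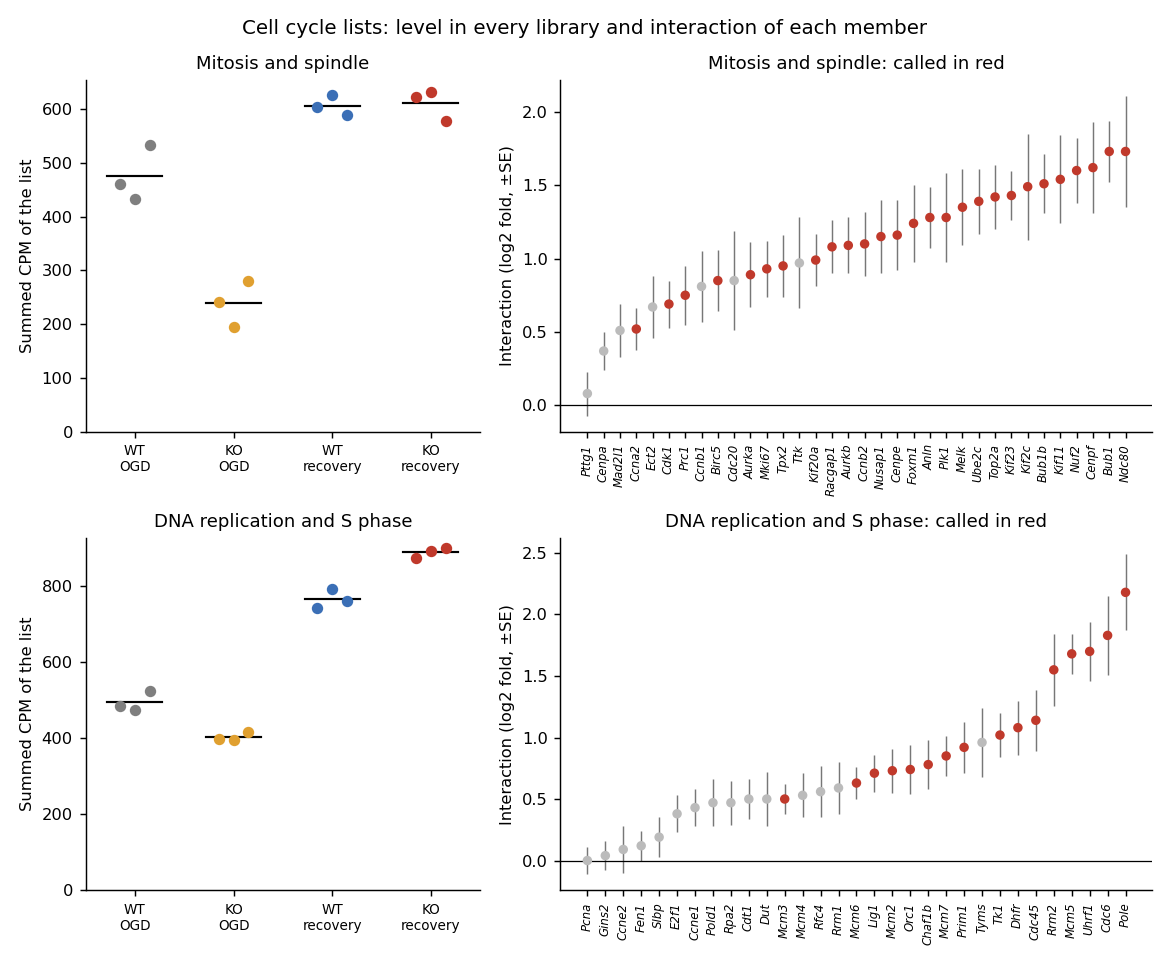
Left, summed CPM of the mitosis list (34 genes) and the DNA replication list (31 genes) in each library, with group means as lines. Right, the interaction of each member as log2 fold change with its SE, red where called; 27 mitosis and 16 replication genes are red, and all of these are above 0.

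Of the genes named here, the one with the lowest adjusted p was a chemokine receptor gene. Ccr1l1 (chr9:123977243-123978408), a receptor-like gene beside Ccr1, was at 0.634, 0.325 and 0.624 CPM in WT after OGD and 50.3, 73.6 and 82.8 after recovery, against 129, 115 and 132 after OGD and 156, 116 and 153 after recovery in KO. WT-OGD alone was near the bottom of the scale, and WT-recovery stayed below both KO groups. The change over recovery was 6.99 ± 0.25 in WT and 0.18 ± 0.16 in KO, an interaction of −6.81 ± 0.30 (edgeR adjusted p = 3.13e-08). Ccr2 (chr9:124101950-124113557), the receptor that recruits monocytes, was also lowest in WT-OGD, but its recovery groups overlapped, with 1.93, 1.03 and 1.5 CPM in WT after OGD and 25.6, 26.0 and 30.0 after recovery, against 6.82, 8.84 and 7.74 after OGD and 25.4, 22.7 and 32.1 after recovery in KO. It rose in both genotypes, by 4.18 ± 0.19 in WT and 1.79 ± 0.16 in KO, an interaction of −2.39 ± 0.25 (edgeR adjusted p = 0.000111). Both genes lie in a cluster of close copies on the same chromosome, so the assignment of reads among them is uncertain. Of 13 receptors tested these 2 were called, and 5 were lower without KO-recovery replicate 3 and 4 in DESeq2. The neighbour Ccr1 had an interaction of 0.38 ± 0.14 (edgeR adjusted p = 0.138). BC002163, a processed pseudogene on chromosome 16, had the pattern of Ccr2, with 0.708 to 0.935 CPM in WT-OGD, 3.5 to 4.12 in KO-OGD and 9.53 to 13.2 in the recovery libraries, and its reads may also come from its parent gene.

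Several inflammatory and repair genes rose in both genotypes but further in KO. Saa3, an acute phase protein, was at 4.12 to 4.63 CPM in WT-OGD and 3.61 to 4.43 in KO-OGD, then 54.3, 73.1 and 54.8 in WT-recovery against 204, 268 and 414 in KO-recovery. The OGD groups overlapped. The recovery groups did not, which was a condition for choosing this gene. It rose by 3.80 ± 0.25 in WT and 6.16 ± 0.27 in KO, an interaction of 2.36 ± 0.34 (edgeR adjusted p = 0.00309). Arg1, the arginase of repair-type macrophages, went from 0.707 to 1.27 CPM and 1.09 to 1.58 after OGD to 11.1, 11 and 14.9 in WT-recovery against 72.4, 71.1 and 65.5 in KO-recovery. Its rise was 3.75 ± 0.19 in WT and 5.71 ± 0.18 in KO, an interaction of 1.96 ± 0.28 (edgeR adjusted p = 0.00109). Chil3, a chitinase-like protein of the same macrophage state, instead differed at the start: it was at 14.1 to 16.1 CPM in WT-OGD, 3.22 to 3.69 in KO-OGD, and overlapped after recovery at 45.4 to 57.7 and 39.9 to 67.9. Mmp8, a neutrophil-type collagenase, rose by 4.09 ± 0.16 in WT and 5.30 ± 0.17 in KO, to 364 to 506 and 653 to 819 CPM. Of 17 alternative activation and repair genes tested, 4 were higher and 1 lower in KO; the higher count was 2 without WT-OGD replicate 3, WT-recovery replicate 3 or KO-recovery replicate 1, with thinned counts, and with the astrocyte covariate. Socs3, an inhibitor of cytokine signalling in that list, reached 21.8 to 26.0 CPM in WT-recovery against 31.9 to 34.9 in KO-recovery, and its call was lost without WT-OGD replicate 1 or 3, WT-recovery replicate 3 or KO-recovery replicate 1.

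Surface and signalling genes of microglia and border macrophages were in the same set. Siglec1, a sialic acid receptor of border macrophages, was at 60.9 to 68.0 CPM in WT after OGD and 86.9, 98.1 and 82.3 after recovery, against 47.5 to 60 after OGD and 177, 171 and 157 after recovery in KO, an interaction of 1.21 ± 0.14 (edgeR adjusted p = 0.00023). Fcrls, a microglial marker of the Fc receptor-like family, rose by 1.42 ± 0.11 in WT and 2.92 ± 0.11 in KO, to 15.5 to 19.7 and 33.6 to 37.9 CPM. Clec4a3, an inhibitory lectin, was at 10.8 to 12.4 CPM in all 6 OGD libraries, then 28.5, 28.7 and 30.3 in WT-recovery against 60.1, 62.6 and 55.1 in KO-recovery. St8sia4, a polysialyltransferase, rose by 0.27 ± 0.11 in WT and 1.47 ± 0.10 in KO. Ifi213, an interferon-inducible gene with close copies, had an interaction of 3.07 ± 0.62, at 0.0329 to 0.301 CPM in KO-OGD and 5.19 to 6.05 in KO-recovery. Its KO-OGD libraries held 11, 1 and 11 counts, so the size of this fold rests on a group of few counts. In WT it rose by 1.68 ± 0.4, from 0.686 to 0.944 CPM after OGD to 1.26, 4.21 and 1.77 after recovery. Separate recovery groups were a condition for choosing this gene. The platelet chemokine Pf4 had an interaction of 1.81 ± 0.31, and its call was lost with thinned counts (adjusted p = 0.128). Of 11 border macrophage markers tested 3 were higher, with the list summing to 2700 to 3620 CPM in WT-recovery against 3390 to 3610 in KO-recovery, and Cd163 and Lyve1 were at or below a mean of 1.04 CPM in every group. With thinned counts 1 of the border macrophage markers was higher. Of 9 monocyte markers tested 3 were higher and 1, Ccr2, lower, summing to 769 to 1180 CPM in WT-recovery against 1410 to 1580 in KO-recovery. The count of higher monocyte markers fell to 1 on leaving out replicate 2 or 3 of the groups WT-OGD, KO-OGD and WT-recovery, or KO-recovery replicate 1. Whether more border macrophages or monocytes were present in KO-recovery was not tested.

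A few complement, interferon and inflammasome genes were higher in KO. C3, the central complement protein, went from 71.5 to 94.8 CPM over the OGD libraries to 447, 377 and 357 in WT-recovery against 528, 534 and 594 in KO-recovery, an interaction of 0.65 ± 0.15 (edgeR adjusted p = 0.0199). Cfb, a protease of the alternative pathway, had an interaction of 1.59 ± 0.34, and C2, its classical pathway relative, fell by 0.56 ± 0.16 in WT and rose by 0.40 ± 0.15 in KO. Of 18 complement genes these 3 were higher, against 2.81% of all genes tested. Leaving out WT-OGD replicate 3 gave 0, leaving out WT-OGD replicate 1, KO-OGD replicate 3 or WT-recovery replicate 2 or 3 gave 1, and it was 6 without WT-recovery replicate 1 or KO-recovery replicate 3.

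Of 41 interferon-stimulated genes 34 rose in each genotype, against 27.0% of all genes tested in WT and 29.4% in KO. In the interaction 2 of the 41 were higher in KO, a share near the 2.81% over all genes tested. Mx1, an antiviral GTPase, was at 7.99, 11.5 and 7.32 CPM in WT-recovery against 19.7, 22.8 and 16.8 in KO-recovery, an interaction of 1.40 ± 0.29, and its call was lost with the astrocyte covariate (1.15 ± 0.32, edgeR adjusted p = 0.0566). Dhx58, a cytoplasmic sensor of viral RNA, had an interaction of 0.88 ± 0.24. The interferon count was 7 without KO-recovery replicate 3 and 5 without WT-recovery replicate 2, and 1 without any of WT-OGD replicates 1 to 3, KO-OGD replicates 1 to 3, WT-recovery replicate 3 or KO-recovery replicates 1 and 2. Of 19 inflammatory cytokine and inflammasome genes tested, 2 were higher in KO, Casp1 and Casp4, and 0 lower, against 2.81% and 2.32% of all genes tested. The median interaction of that list was −0.32, below the 0.028 over all genes tested, so the 2 calls do not give a direction of the list. Casp1, the protease of the inflammasome, reached 64.5 to 71.0 CPM in WT-recovery against 94.6 to 115 in KO-recovery, an interaction of 0.54 ± 0.12 (edgeR adjusted p = 0.0154). Its neighbour Casp4, a sensor of bacterial lipopolysaccharide, fell by 2.14 ± 0.18 in WT and by 0.93 ± 0.17 in KO, and its call was lost with the astrocyte covariate (edgeR adjusted p = 0.0642) and without the 2 recovery libraries of highest mitochondrial share (0.0844). Clec7a, the beta-glucan receptor dectin that marks disease-associated microglia, was at 1950 to 2070 CPM in WT-recovery against 2790 to 2860 in KO-recovery, from 1730 to 1990 in the OGD libraries, an interaction of 0.54 ± 0.12. Of 25 disease-associated microglia genes tested, Clec7a was the 1 higher in KO and Ank the 1 lower, with a median interaction of 0.06. These shares are near the 2.81% and 2.32% over all genes tested. Leaving out WT-OGD replicate 2 ended the calls of Casp1 and Clec7a, and leaving out replicate 1 of either OGD group that of Clec7a. With the astrocyte covariate both calls were lost (edgeR adjusted p = 0.0729 for Casp1 and 0.0504 for Clec7a). Casp1 also lost its call without the 2 recovery libraries of highest mitochondrial share (edgeR adjusted p = 0.0605).

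A smaller set fell in WT and fell less, or rose, in KO. Rgs1, a brake on G protein signalling, was at 216, 209 and 211 CPM in WT after OGD and 52.9, 40.0 and 39.4 after recovery, against 183, 147 and 190 after OGD and 107, 121 and 93.3 after recovery in KO. KO-recovery was above WT-recovery in every library. It fell by 2.27 ± 0.13 in WT and by 0.70 ± 0.12 in KO on the log2 scale, an interaction of 1.57 ± 0.18 (edgeR adjusted p = 0.000204). Ndrg1, a hypoxia target, fell by 1.76 ± 0.10 in WT and by 0.94 ± 0.09 in KO. Malat1, an abundant nuclear RNA, was at 375 to 450 CPM in WT after OGD and 274, 348 and 307 after recovery, against 415 to 610 after OGD and 900, 1030 and 1080 after recovery in KO. It fell by 0.44 ± 0.13 in WT and rose by 0.95 ± 0.13 in KO, an interaction of 1.40 ± 0.19 (edgeR adjusted p = 0.00081). Gm37376, annotated on the opposite strand of Malat1 and overlapping it, went the same way at 1.66 ± 0.21. The sorting nexin Snx29, the kinase Cdk20 and the zinc finger gene Zfp992 also fell in WT and rose in KO, with interactions of 1.2 ± 0.17, 0.78 ± 0.13 and 1.37 ± 0.22. Fblim1 (chr4:141576062-141606096), an adaptor of cell-matrix contacts, was at 100 to 105 CPM in WT after OGD and 63.1 to 71.2 after recovery, against 27.0 to 30.1 after OGD and 35.4 to 39.8 after recovery in KO, so KO stayed below WT at both times while the gap narrowed. Fblim1 and Zfp992 (chr4:146449023-146470292) lie on chromosome 4, which also holds Slc2a5. The part of linkage to the targeted gene in their values was not tested.

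**Figure D5:**
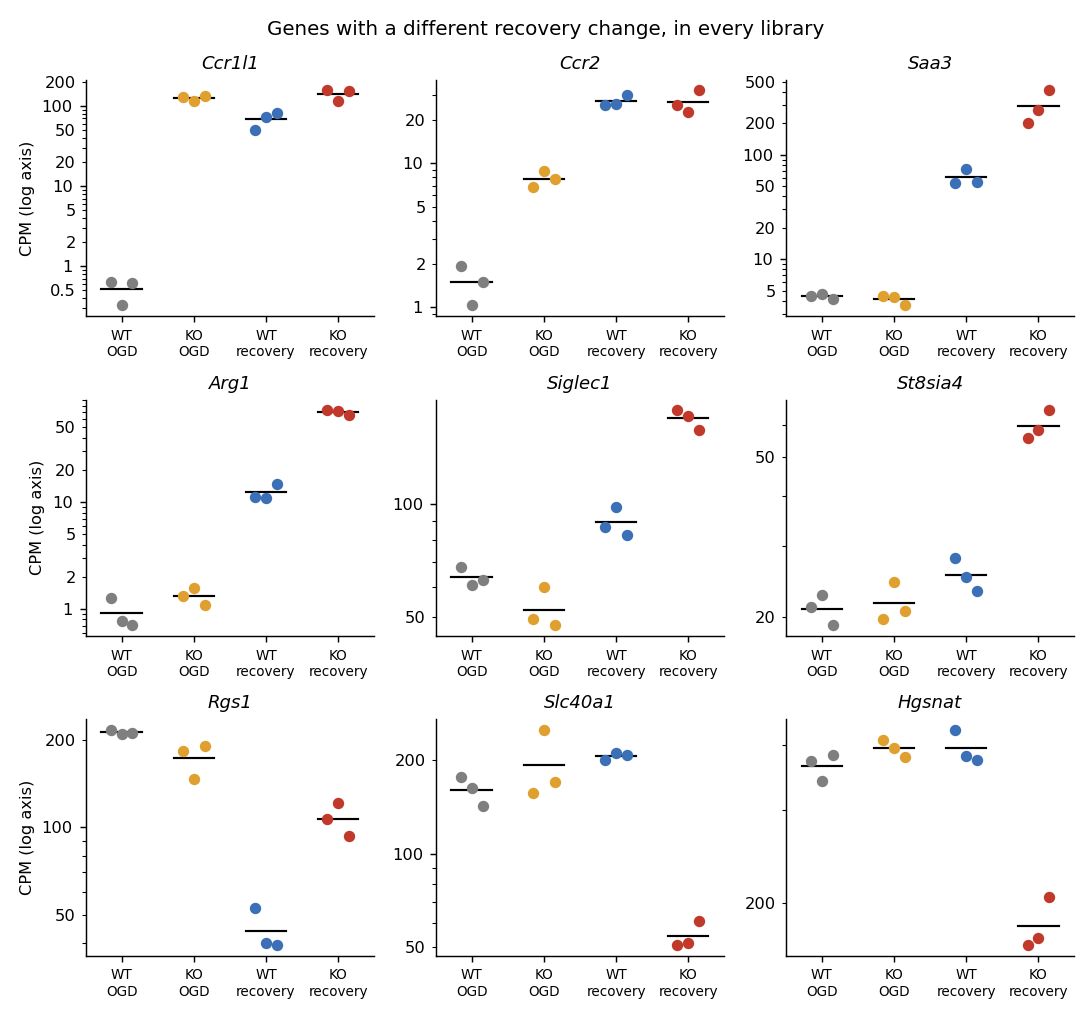
Normalised level in each of the 12 libraries (points, CPM on a log axis, with a separate scale per panel) and group means (lines) for 9 genes. WT-OGD stands apart for Ccr1l1 and Ccr2, KO-recovery is highest for Saa3, Arg1, Siglec1 and St8sia4, and KO-recovery is lowest for Slc40a1 and Hgsnat.

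Some genes of iron export, oxidant defence and metabolism were lower in KO. Slc40a1, which encodes ferroportin, the exporter of iron from cells, was at 177, 163 and 142 CPM in WT after OGD and 200, 211 and 208 after recovery, against 157, 250 and 170 after OGD and 50.8, 51.4 and 60.8 after recovery in KO. The 3 KO-recovery libraries were below all 9 others. It rose by 0.36 ± 0.14 in WT and fell by 1.82 ± 0.15 in KO, an interaction of −2.18 ± 0.21 (edgeR adjusted p = 7.15e-05). Hgsnat, a lysosomal enzyme of heparan sulphate breakdown, was at 341 to 427 CPM in both OGD groups and WT-recovery, and at 166, 171 and 205 in KO-recovery, an interaction of −1.24 ± 0.13 (edgeR adjusted p = 0.000127). Cat, the peroxide-degrading catalase, was at 316 to 363 CPM in WT-recovery against 177 to 246 in KO-recovery, an interaction of −1.05 ± 0.20. Me1, the cytosolic malic enzyme that makes NADPH, had 27.5 to 29.0 CPM in WT-recovery against 10.8 to 15.1 in KO-recovery, an interaction of −1.02 ± 0.19. Of 26 NRF2-linked antioxidant genes tested, 4 were lower and 1, Gsta4, higher; the higher count was 1 without KO-OGD replicate 3, WT-recovery replicate 1 or KO-recovery replicate 2 and 0 without any other library. Without KO-recovery replicate 3 the lower count was 14, and without both KO-recovery libraries holding muscle transcripts it was 8. Taldo1, transaldolase of the pentose phosphate pathway, rose by 0.51 ± 0.10 in WT and fell by 0.31 ± 0.10 in KO.

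Some amino acid and one-carbon genes were lower in KO. Aldh1l2, a mitochondrial folate enzyme, fell in KO by 2.04 ± 0.26, to 0.653 to 1.29 CPM against 5.02 to 7.77 in WT-recovery. Its interaction of −2.39 ± 0.33 (edgeR adjusted p = 0.00087) was larger than that fall, so its WT change was not a fall. It overlaps D10Wsu102e. Slc7a5, a carrier of large neutral amino acids, fell by 2.30 ± 0.14 in WT and by 3.26 ± 0.15 in KO. The stress response and amino acid list had 5 of 28 members lower, but 2 without any of WT-OGD replicates 1, 2 and 3, KO-OGD replicates 1 and 3, WT-recovery replicate 2 or KO-recovery replicate 1, and 3 without WT-recovery replicate 3 or KO-recovery replicate 2. Slc1a1, a glutamate and cysteine carrier, rose by 1.65 ± 0.13 in WT and changed by −0.12 ± 0.14 in KO; its exons overlap those of 4430402I18Rik, which had an interaction of −1.70 ± 0.17, and the 2 cannot be told apart. Tgm2, a crosslinking transglutaminase, fell by 1.57 ± 0.14 in WT and by 2.48 ± 0.14 in KO.

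A regulator gene and an uptake gene of macrophages were also lower in KO. Sall3, a zinc finger factor of the family of the microglial regulator Sall1, fell in KO by 1.70 ± 0.19 and changed by −0.16 ± 0.17 in WT. Itgb5, an integrin of debris uptake, rose by 0.56 ± 0.09 in WT and changed by −0.12 ± 0.09 in KO. Of 25 homeostatic microglia genes tested, 1 was higher, Fcrls, and 2 were lower, Sall3 among them. The shares over all genes tested were 2.81% higher and 2.32% lower. Without KO-recovery replicate 3, 4 were lower.

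Nnat, Ngfr and Sox10, which are known from neural cells, were lower in KO, and few members of the neural marker lists were called. Nnat, neuronatin, was at 0.591 to 0.829 CPM in the OGD libraries, 27.4, 25.9 and 23.9 in WT-recovery, against 3.22, 1.47 and 2.78 in KO-recovery. The recovery groups did not overlap. It rose by 5.07 ± 0.21 in WT and 1.98 ± 0.24 in KO, an interaction of −3.09 ± 0.32 (edgeR adjusted p = 0.000105). Ngfr, the low-affinity neurotrophin receptor, was at 11.6, 15.1 and 13.5 CPM in WT-recovery against 0.245 to 1.04 in KO-recovery, an interaction of −4.58 ± 0.68 (edgeR adjusted p = 0.00205). Sox10, a factor of oligodendrocytes and Schwann cells, was at 10.4, 8.91 and 7.03 CPM in WT-recovery against 0.397, 0.653 and 0.482 in KO-recovery. WT-OGD held 0 counts in 2 of 3 libraries, so the interaction of −6.05 ± 1.35 (edgeR adjusted p = 0.0193) depends on the prior count, and it was no longer called when WT-OGD replicate 3 was left out (adjusted p = 0.0536), without KO-OGD replicate 2 (−3.86, adjusted p = 0.347), with thinned counts (0.0717) and without the 2 KO-recovery libraries with muscle transcripts (0.057). The 11 tested neuron markers summed to 80.6 to 96.1 CPM in WT-recovery, 17.0 to 29.5 in KO-recovery, 24.4 to 36.5 in WT-OGD and 8.02 to 13.7 in KO-OGD. Of the 11, 9 rose in each genotype. In edgeR 0 of the 11 was called in the interaction, 1 had an unadjusted p under 0.05, and DESeq2 called 0. The 10 tested oligodendrocyte markers summed to 297 to 324 CPM in WT-recovery against 244 to 303 in KO-recovery, and Sox10 was the 1 called. Of 11 astrocyte markers 1 was higher and 0 lower, with a median interaction of 0.36. The part of neural cells in these values was not tested.

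Regulators of inflammation and uptake receptors gave further genes lower in KO. Marco, a scavenger receptor for bacteria and debris, was at 198, 198 and 228 CPM in WT after OGD and 294, 219 and 199 after recovery, against 81.4, 54.7 and 85.3 after OGD and 41.3, 42.9 and 44.8 after recovery in KO. KO was below WT in every library at both times, and the gap widened, an interaction of −0.97 ± 0.23 (edgeR adjusted p = 0.0267). Nfkbia, the inhibitor that NF-kB itself induces, rose by 0.89 ± 0.12 in WT and its KO change of 0.19 ± 0.12 was not called. Mmp14, a membrane-bound protease, was at 243, 183 and 148 CPM in WT-recovery against 78.0, 82.5 and 104 in KO-recovery, an interaction of −0.91 ± 0.21. The transcription factor Myc rose by 0.44 ± 0.08 in WT and changed by −0.03 ± 0.08 in KO. The counts behind these genes were small: 2 of 30 uptake and scavenger receptors, 1 of 24 NF-kB and Toll-like receptor genes and 1 of 16 matrix proteases and inhibitors were lower, against 2.32% of all genes tested. Marco lost its call on dropping replicate 1 or 2 of WT-OGD or KO-recovery, or replicate 1 or 3 of KO-OGD. Mmp14 lost it on dropping replicate 1 of WT-OGD, KO-OGD or KO-recovery, or replicate 3 of WT-OGD. Nfkbia and Myc lost it on leaving out any 1 WT-OGD library, KO-OGD replicate 1 or 3, WT-recovery replicate 2 or 3, or KO-recovery replicate 1. Uptake receptors lower in KO numbered 4 without WT-recovery replicate 1 or KO-recovery replicate 3, and NF-kB genes 2 without KO-OGD replicate 2 or KO-recovery replicate 3.

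Most hypoxia targets fell, 17 of 24 in WT and 19 in KO, against 29.9% and 29.7% of all genes tested. The 2 that fell further in KO were Mxi1 and Ddit4, and Hk2, described next, is not in that list. Hk2, a hexokinase, was at 204 to 213 CPM in WT after OGD and 64.5 to 67.1 after recovery, against 245 to 288 after OGD and 55.4 to 67.7 after recovery in KO, so its interaction of −0.46 ± 0.12 (edgeR adjusted p = 0.0411) came with a KO level that was higher after OGD and overlapped after recovery. Mxi1, an antagonist of Myc, and Ddit4, an inhibitor of growth signalling, fell by 0.99 ± 0.08 and by 3.12 ± 0.17 in KO, with WT recovery changes of −0.46 ± 0.08 and −2.15 ± 0.16. Of 24 hypoxia targets 2 were lower and 1, Ndrg1, higher, against 2.32% lower and 2.81% higher of all genes tested. Ddit4 lost its call without any 1 WT-OGD library, KO-OGD replicate 1 or 3, WT-recovery replicate 2 or KO-recovery replicate 1. Of 12 fructose and polyol genes tested, the list closest to the function of GLUT5, Hk2 was the 1 called. Its call held without KO-OGD replicate 3, WT-recovery replicate 1 or KO-recovery replicate 3 and was lost on leaving out any other library (edgeR adjusted p = 0.0621 to 0.0989), with thinned counts (0.0577) and with the astrocyte covariate (−0.30, adjusted p = 0.22). The list had 2 lower without WT-recovery replicate 1 or KO-recovery replicate 3. Elovl6 and Hmgcs1, enzymes of fatty acid and cholesterol synthesis, were the 2 of 29 lipid synthesis genes called lower, at −0.93 ± 0.22 and −0.94 ± 0.24. Their count was 0 without WT-OGD replicate 1 or 2, WT-recovery replicate 2 or KO-recovery replicate 1, 1 without WT-OGD replicate 3, KO-OGD replicate 1 or 3, WT-recovery replicate 3 or KO-recovery replicate 2 or 3, and 4 in DESeq2.

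Ribosomal and respiratory genes made a shallower shift. Rps20, a protein of the small ribosomal subunit, was at 163 to 185 CPM in WT-recovery against 106 to 130 in KO-recovery, from 173 to 230 in the OGD libraries, an interaction of −0.76 ± 0.14 (edgeR adjusted p = 0.00637). Rps28 had an interaction of −0.71 ± 0.13. The 12 of 46 lower ribosomal genes became 5, 7 and 4 without WT-OGD replicates 1, 2 and 3, 4 and 6 without KO-OGD replicates 1 and 3, 6 without WT-recovery replicate 2, 4 without KO-recovery replicate 1 and 2 without both KO-recovery libraries with muscle transcripts. In KO 31 of the 46 fell and 0 rose, and in WT 7 rose and 11 fell. Ndufa4, a respiratory subunit, rose by 0.65 ± 0.08 in WT and changed by −0.13 ± 0.08 in KO, an interaction of −0.78 ± 0.11 (edgeR adjusted p = 0.00134). It was 1 of 4 lower among 39 nuclear encoded respiratory genes, against 2.32% of all genes tested. The count was 1 or 2 without any 1 WT-OGD library or KO-OGD replicate 1 or 3. It was also 1 or 2 without WT-recovery replicate 1 or 2 or KO-recovery replicate 1, and 7 without KO-recovery replicate 3.

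Muscle and cartilage transcripts followed 2 libraries. Ckm, muscle creatine kinase, was at 6.79 and 8.73 CPM in KO-recovery replicates 1 and 3, 0.572 CPM in KO-recovery replicate 2 and 0.0657 to 0.325 in the other 9 libraries. Tnnt3, a troponin of fast muscle, was at 10.9 and 14.3 CPM in those libraries and 2.94 in KO-recovery replicate 2. Col2a1, the collagen of cartilage, was at 20.9, 1.63 and 18.7 CPM in KO-recovery and 0.0740 to 1.14 elsewhere. Of 8 skeletal muscle markers tested 2 were higher in KO. The count was 0 without any 1 of the WT-OGD, KO-OGD and WT-recovery libraries, without KO-recovery replicate 1, or without both libraries that held the transcripts, and it was 6 without KO-recovery replicate 2. Of 12 connective tissue markers 1 was higher, Col2a1, and 1 lower, Postn. Without KO-recovery replicate 1 or 3, any 1 of the WT-OGD and KO-OGD libraries, or WT-recovery replicate 2 or 3, the count of higher connective tissue markers was 0, and it was 4 without KO-recovery replicate 2. Postn lost its call without any 1 of the WT-OGD, KO-OGD and WT-recovery libraries (edgeR adjusted p = 0.0532 to 0.0863).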

How the data were processed

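RNA sequencing of sorted mouse microglia was analysed from the deposited table of read counts per gene, with 12 libraries in 4 groups of 3. The counts were made by the authors with HISAT2 and featureCounts on GRCm38, per the submitters' processing notes; versions, strand setting and the handling of multiply mapped reads are not given in the sources used here. The labels' protocols name a stranded total RNA kit, while the molecule field reads polyA RNA. Without the strand setting, overlapping and antisense genes cannot be told apart.

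Gene symbols came from GENCODE M21, with 55240 of 55421 identifiers matched, 54673 of them with the same version. Genes were tested with edgeR 4.0.16 (R 4.3.3, limma 3.58.1), with its filter on low counts, TMM scaling and a robust quasi-likelihood fit of 1 mean per group. The interaction was the KO recovery change minus the WT recovery change. P-values were adjusted by Benjamini-Hochberg over all 18842 genes tested, X and Y included, and calls were made at 0.05. Of 18200 autosomal and mitochondrial genes tested, 3749 had an unadjusted p under 0.05. Standard errors are the fold change divided by the root of F. Levels are TMM-scaled CPM. The common biological coefficient of variation was 0.119. Replicates differed by more than counting noise, with a chi-square of 6.66 to 60.2 per degree of freedom. The fit was tested on simulated data.

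Named genes were called, had a mean of at least 5 CPM in 1 group, and were the 12 of lowest p in each direction, the 6 of largest fold with separate recovery groups, the 6 of lowest p in each orientation of opposite change, or up to 4 called members of each list. For the genes of largest fold, separate recovery groups were thus a condition of the choice and not a result. Members of lists without a call are given with values only. Some genes that the rule or the lists hold are not reported here. The genes and lists were chosen with earlier results of these data known. Promoters are RefSeq sequences on GRCm38.p6. Alternatives were DESeq2 1.42.0, other scalings, filters and covariates, thinned counts, a replicate block, and leaving out libraries. Those using covariates, marker-bearing libraries or mitochondrial genes were chosen after seeing the data.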

Additional observations from a re-analysis of the deposited data

Results flagged for a closer look

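The number of genes whose recovery change differed between genotypes, 934, was marked because the interaction itself is a test of a difference between groups. The genes marked individually moved in opposite directions in WT and KO, each direction called, with the interaction called as well. Among those that rose in WT and fell in KO, the interaction was −4.09 for H2-Ab1, −5.30 for H2-Eb1, −4.41 for H2-Aa, −2.69 for Cd74, −1.70 for 4430402I18Rik and −2.18 for Slc40a1 on the log2 scale. Among those that fell in WT and rose in KO, it was 0.98 for Fblim1, 1.66 for Gm37376, 1.40 for Malat1, 1.2 for Snx29, 1.37 for Zfp992 and 0.78 for Cdk20. These 12 stayed called in each of the 25 alternatives. Groups of 3 libraries are too small for a test of single outlying values.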

How the results depend on the processing

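Of 103 named genes, 57 stayed called in each of 25 alternatives, 46 lost the call in 1 or more, and 0 changed direction. The number of genes called, 934 (511 higher, 423 lower), was 1456 with DESeq2 (780 lower), 1885 without a filter on low counts (1019 higher, 866 lower), 520 with counts thinned to the shallowest library (273 higher, 247 lower), 610 with the astrocyte covariate (254 higher) and 473 when at least a 2-fold difference was also required (278 higher, 195 lower). Leaving out each library in turn gave 454 to 1695 genes, 235 to 852 higher and 219 to 843 lower. With the replicate block, 624 genes were called, 269 of them lower. The replicate numbers did not pair the samples: 1 of 18 same-numbered pairs had a correlation of deviations over 0.1, with a range of −0.228 to 0.156. The cause of these differences was not tested, except that thinning and leaving out a library reduce the counts or samples. The recovery libraries, at 9885259 to 19915479 counts, were shallower than the OGD libraries, which limits genes of few counts. Slc2a5 had 0 to 2 counts in each recovery library. Ccr7 was low in the deeper OGD libraries too, with 5 counts in each OGD group, against 88 in WT-recovery and 2 in KO-recovery. The part of depth in these counts was not tested.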
